A study of Homo sapiens with 9 samples.

Results

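The 8 genes of the activin, GDF15 and TGF-beta pathway described here were measured in THP-1, a line of human monocytic leukaemia cells, after incubation with ectosomes of Huh7 hepatoma cells. Ectosomes are extracellular vesicles shed by outward budding of the cell surface. The genes are INHBA, GDF15, TGFB1, TGFBR1, TGFBR2, ACVR1B, SMAD3 and SMAD7, taken by symbol as 8 of the 30000 rows of the deposited count table. They were chosen by measured values of these same libraries, having been proposed with earlier results in view, and the exact values used are not recorded. Accordingly, their levels and fold changes are given as a description and no test is read from them. All 8 had enough counts to be tested, INHBA and GDF15 only through the groups given ectosomes.

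The RNA libraries, 9 in all, formed 3 groups of 3. The control group is labelled Ctrl and has no agent in the labels. The Scramble_Ecto group is labelled with the shRNA Scramble and the agent ectosomes, and the PKM2_KD_Ecto group with the shRNA PKM2_KD and the same agent. The shRNA was read here as carried by the Huh7 cells that released the vesicles, and PKM2 is an isoform of the glycolytic enzyme pyruvate kinase. All groups are 1 cell line, and neither the ectosome dose nor the incubation time is given in the sources used here. Nothing says that replicates came from separate cultures, so the error behind each p-value is the spread of these libraries and may be technical.

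Activins and TGF-beta are secreted dimers that bind a type II receptor kinase, which then activates a type I receptor kinase. The type I receptors TGFBR1 and ACVR1B phosphorylate SMAD2 and SMAD3, which join SMAD4 and regulate genes in the nucleus, while SMAD7 feeds back to block the receptors. GDF15 is a distant relative that is secreted under cellular stress and acts through the receptor GFRAL. In monocytes and macrophages activin A and TGF-beta are known regulators of differentiation and inflammatory output.

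Promoter sequence was set beside the expression values for the 3 ligand genes, since INHBA and GDF15 showed the widest ranges over the groups and TGFB1 followed another order. The 150 bases before each RefSeq start (GRCh38.p14) are given 5′ to 3′ on the strand of the gene, with TATAAA and the GC box GGGCGG, on either strand, in capitals. The windows are chr7:41703091-41703240 on the minus strand for INHBA, chr19:18386008-18386157 on the plus strand for GDF15, and chr19:41353923-41354072 on the minus strand for TGFB1.
INHBA: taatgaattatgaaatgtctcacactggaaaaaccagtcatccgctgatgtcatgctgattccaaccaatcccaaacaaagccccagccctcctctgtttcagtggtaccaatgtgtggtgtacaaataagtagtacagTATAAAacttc
GDF15: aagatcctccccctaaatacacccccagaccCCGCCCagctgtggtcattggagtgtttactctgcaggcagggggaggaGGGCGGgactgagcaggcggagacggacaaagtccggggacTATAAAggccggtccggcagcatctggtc
TGFB1: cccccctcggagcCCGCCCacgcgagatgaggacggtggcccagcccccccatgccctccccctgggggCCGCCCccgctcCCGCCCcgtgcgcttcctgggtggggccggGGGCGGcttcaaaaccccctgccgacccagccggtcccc

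GC content was 41.3% in the INHBA window, 62.0% in the GDF15 window and 80.0% in the TGFB1 window. All 8 genes matched the RefSeq promoter table by symbol, and motifs were searched on both strands of its 300-base windows, 250 bases before to 50 after the start. The letters TATAAA were in the INHBA and GDF15 windows and in none of the other 6, against 12.0% of all 27305 promoters. Their first base was at -29 from the start in GDF15 and at -11 in INHBA, so the placement differed. The RefSeq starts of both genes lie inside the GENCODE gene spans given below. GGGCGG was in the windows of GDF15, TGFB1, SMAD3 and ACVR1B, against 44.6% of all promoters. CAGACA, a form of the CAGA box that SMAD3 and SMAD4 can bind, was in the INHBA window only, against 16.8%. It lay after the start, with its first base at 28, and so outside the printed sequence. None of the 8 windows held any of 4 further motifs, namely the SMAD palindrome GTCTAGAC (0.201% of all promoters), the AP-1 motif TGANTCA (7.76%), the cAMP response element TGACGTCA (1.98%) and the C/EBP-ATF motif TGATGNAAT (1.02%). No motif of this search is contained in another. A match is a description of the letters and not evidence of binding.

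INHBA encodes the beta A subunit of inhibin and activin, whose homodimer is activin A. The gene lies at chr7:41667168-41705834 on the minus strand (GRCh38, GENCODE 29). Control replicates 1, 2 and 3 held 0, 12 and 2 reads, or 0.000, 0.517 and 0.110 CPM (reads scaled to library size by TMM). Scramble-ectosome replicates held 81.6, 84.2 and 85.1 CPM, and PKM2-knockdown-ectosome replicates 46.4, 39.6 and 39.4 CPM. INHBA was thus near the limit of detection in every control library and clearly present in every library of both other groups, with no overlap between any pair of groups. Means were 0.209 ± 0.272, 83.7 ± 1.80 and 41.8 ± 4.02 CPM (SD, n = 3 libraries here and throughout).

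The fitted level of INHBA was 352-fold higher with scramble ectosomes than in control (log2 fold change 8.46, SE 0.33). That size hung on few control reads, 12 of the 14 being in control replicate 2, and it was 1381-fold without this library. The ratio of summed reads, scaled to library size, was 359, with a 95% interval of 214 to 657 that covers counting error only. With PKM2-knockdown ectosomes INHBA was 176-fold above control (log2 fold change 7.46, SE 0.33), or 691-fold without control replicate 2. Between the kinds of ectosomes it was 2.0-fold lower with the knockdown (log2 difference -1.0, SE 0.19).

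GDF15 encodes the stress-induced cytokine growth differentiation factor 15 (chr19:18374731-18389176, plus strand). Its control libraries held 2.72, 3.06 and 0.276 CPM, which are 51, 71 and 5 reads. Scramble-ectosome libraries held 293, 333 and 333 CPM, and PKM2-knockdown-ectosome libraries 11.3, 10.4 and 10.4 CPM. The level with scramble ectosomes stood far above both other groups, while the knockdown group lay just above control, and no pair of groups overlapped. Means were 2.02 ± 1.52, 320 ± 23.2 and 10.7 ± 0.529 CPM.

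GDF15 was 153-fold higher with scramble ectosomes than in control (log2 fold change 7.26, SE 0.40), or 110-fold without control replicate 3. It was 29.8-fold lower with PKM2-knockdown than with scramble ectosomes (log2 fold change -4.90, SE 0.34). Against control it was 5.15-fold higher with PKM2-knockdown ectosomes (log2 difference 2.36, SE 0.39), or 3.68-fold without control replicate 3. INHBA and GDF15, both of them secreted ligands with the same order of groups, kept different parts of the scramble-ectosome level with the knockdown, 41.8 of 83.7 CPM for INHBA and 10.7 of 320 CPM for GDF15.

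**Figure D1:**
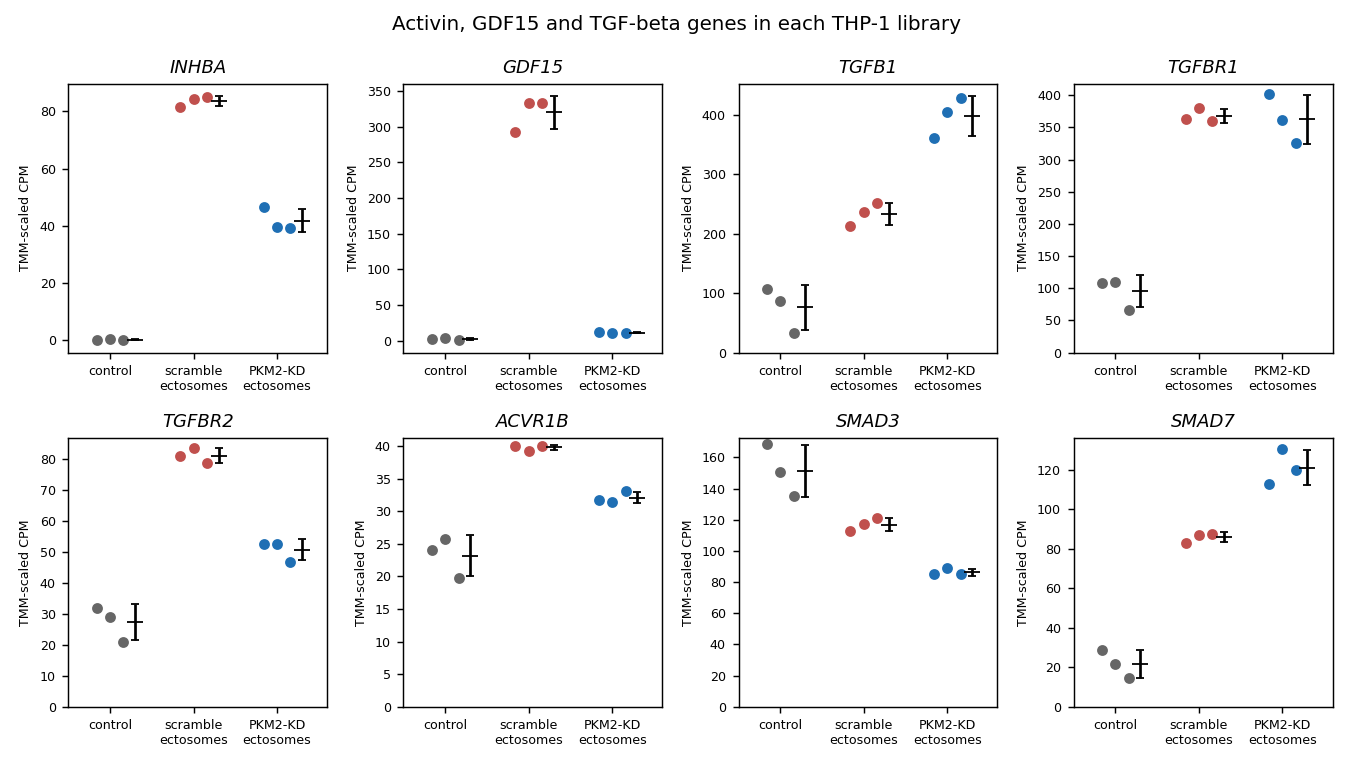
Level of each of the 8 genes in TMM-scaled CPM (linear axis, its own scale for each gene) by group, with 1 point per library and a black mark for the group mean with its SD (n = 3). INHBA and GDF15 go from under 4 CPM in control to above 80 CPM and to at least 293 CPM with scramble ectosomes, GDF15 lies at about 10.7 CPM in the PKM2-knockdown group, and SMAD3 steps down over the groups.

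TGFB1, the gene of the main TGF-beta ligand of leukocytes, followed another order (chr19:41301587-41353911, minus strand). Control libraries held 107, 86.9 and 33.0 CPM, scramble-ectosome libraries 213, 235 and 251 CPM, and PKM2-knockdown-ectosome libraries 360, 404 and 428 CPM. The groups did not overlap, and the knockdown group was the highest. Control replicate 3 was 2.92-fold below the mean of the other controls, which widened the control SD (75.7 ± 38.4 CPM, against 233 ± 19.0 and 398 ± 34.4 CPM).

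TGFB1 was 3.07-fold higher with scramble ectosomes than in control (log2 fold change 1.62, SE 0.32), or 2.40-fold without control replicate 3. With PKM2-knockdown ectosomes it was 5.25-fold above control (log2 fold change 2.39, SE 0.32) and 1.71-fold above scramble ectosomes (log2 fold change 0.77, SE 0.31). TGFB1 shares exon bases with HNRNPUL1 on the opposite strand. As the strand setting of the counting is not given in the sources used here, reads of this stretch cannot be told apart (43176 reads for TGFB1 and 78265 for HNRNPUL1 over the 9 libraries).

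Of the receptors, TGFBR1 (ALK5), the type I receptor for TGF-beta, was higher with both kinds of ectosomes than in control (chr9:99104038-99154192, plus strand). Control libraries held 109, 110 and 66.8 CPM, scramble-ectosome libraries 363, 380 and 360 CPM, and PKM2-knockdown-ectosome libraries 401, 362 and 326 CPM. Both ectosome groups lay above every control, and they overlapped each other. TGFBR1 was 3.86-fold (log2 fold change 1.95, SE 0.17) and 3.81-fold (1.93, SE 0.17) above control. The difference between the kinds of ectosomes was -0.02 on the log2 scale with an SE of 0.16, so it was smaller than its error, and its sign turned with other settings.

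TGFBR2, the type II receptor that binds TGF-beta first, stood at 32.1, 29.1 and 21.0 CPM in the control libraries (chr3:30606502-30694142, plus strand). It stood at 81.1, 83.8 and 78.7 CPM with scramble ectosomes and at 52.8, 52.6 and 46.8 CPM in the PKM2-knockdown group. The groups did not overlap, and the knockdown group lay between the others. TGFBR2 was 2.96-fold above control with scramble ectosomes (log2 fold change 1.57, SE 0.13) and 1.85-fold with PKM2-knockdown ectosomes (0.89, SE 0.13). It was 1.60-fold lower with the knockdown than with scramble ectosomes (log2 fold change -0.68, SE 0.13), whereas for TGFBR1 these groups overlapped.

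ACVR1B (ALK4), the type I receptor for activin, had the same order as TGFBR2 over a narrower range (chr12:51951667-51997078, plus strand). Its libraries held 24.03, 25.7 and 19.7 CPM in control, 40.0, 39.3 and 40.0 CPM with scramble ectosomes, and 31.8, 31.5 and 33.0 CPM in the PKM2-knockdown group. No groups overlapped. ACVR1B was 1.72-fold and 1.38-fold above control (log2 fold changes 0.78 and 0.47, SE 0.10 each), and 1.24-fold lower with the knockdown than with scramble ectosomes (-0.31, SE 0.10).

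SMAD3, which carries the signal of TGF-beta and activin receptors to the nucleus, was the only gene of the 8 that was lower with ectosomes (chr15:67063763-67195195, plus strand). Control libraries held 168, 151 and 135 CPM, scramble-ectosome libraries 113, 117 and 121 CPM, and PKM2-knockdown-ectosome libraries 85.3, 88.9 and 84.9 CPM. The groups stepped down without overlap. SMAD3 was 1.30-fold lower with scramble ectosomes than in control (log2 fold change -0.37, SE 0.09) and 1.35-fold lower again with PKM2-knockdown ectosomes (-0.44, SE 0.09).

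SMAD7, the inhibitory SMAD that recruits ubiquitin ligases to the receptors, was higher with ectosomes (chr18:48919853-48952052, minus strand). Control libraries held 28.6, 21.5 and 14.6 CPM, scramble-ectosome libraries 82.8, 87.1 and 87.5 CPM, and PKM2-knockdown-ectosome libraries 113, 130 and 120 CPM. The groups did not overlap, and the knockdown group was the highest, as for TGFB1. SMAD7 was 3.97-fold above control with scramble ectosomes (log2 fold change 1.99, SE 0.18) and 5.60-fold with PKM2-knockdown ectosomes (2.49, SE 0.19). It was 1.41-fold higher with the knockdown than with scramble ectosomes (0.49, SE 0.17).

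**Figure D2:**
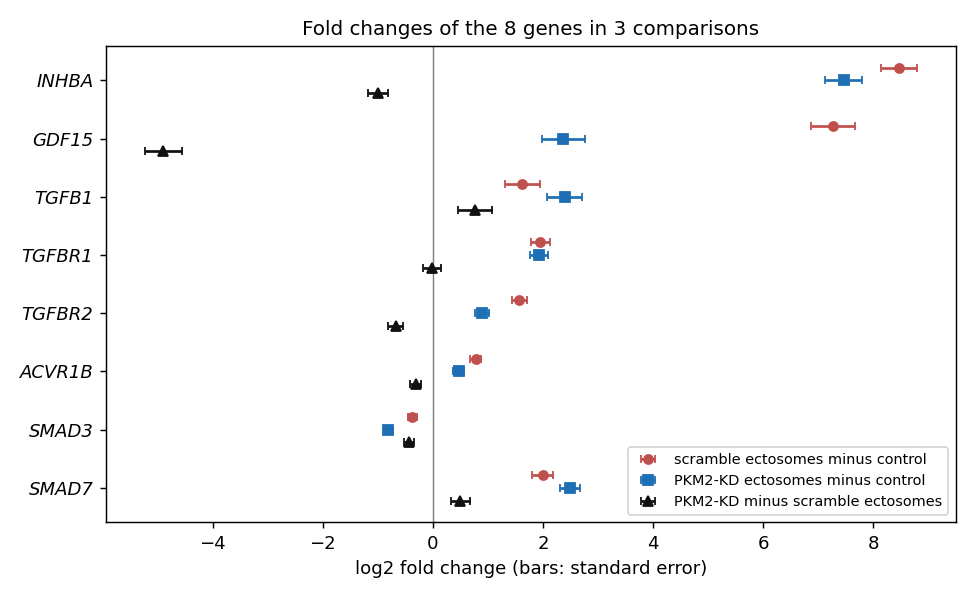
Log2 fold change of each gene in the 3 comparisons, with error bars of 1 SE from the quasi-likelihood fit. SMAD3 alone lies below 0 against control with both kinds of ectosomes, and between them TGFB1 and SMAD7 lie above 0, TGFBR1 at 0 and the other 5 below 0.

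The 8 genes thus fell into 3 orders of group means. INHBA, GDF15, TGFBR1, TGFBR2 and ACVR1B were highest with scramble ectosomes and lowest in control, an order that 21.4% of all tested rows had, though the ectosome groups overlapped for TGFBR1. TGFB1 and SMAD7 were highest with PKM2-knockdown ectosomes and lowest in control, as were 13.4% of rows. SMAD3 was highest in control and lowest with the knockdown, as were 12.3% of rows. Orders this common say nothing particular about these genes.

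Levels were compared between genes only as CPM per kilobase of exon. In control the order ran from TGFB1 (23.4), SMAD3 (16.6) and TGFBR1 (13.9) through TGFBR2 (5.82), SMAD7 (4.29) and ACVR1B (4.07) to GDF15 (0.966) and INHBA (0.0252), and the first 3 lay within the spread of TGFB1. With scramble ectosomes GDF15 came first at 153 CPM per kilobase, above TGFB1 (71.9) and TGFBR1 (53.8). TGFBR2 (17.3) and SMAD7 (17.0) did not differ beyond their spread, and SMAD3 (12.8), INHBA (10.1) and ACVR1B (6.99) followed. With PKM2-knockdown ectosomes TGFB1 led at 123 CPM per kilobase, before TGFBR1 (53.0), SMAD7 (24.02), TGFBR2 (10.8) and SMAD3 (9.48), with ACVR1B (5.64), GDF15 (5.14) and INHBA (5.03) last. The ligand at the head of the order was thus GDF15 in one ectosome group and TGFB1 in the other.

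By edgeR's quasi-likelihood test with Benjamini-Hochberg adjustment over 18437 rows and a threshold of 0.05, 8 of 8 genes passed for scramble ectosomes against control, 7 higher and 1 lower, where 67.8% of all rows passed (34.6% higher and 33.2% lower). Between the kinds of ectosomes 7 passed, 2 higher and 5 lower with the knockdown, against 61.6% of all rows (31.4% higher and 30.3% lower). For PKM2-knockdown ectosomes against control 8 passed, 7 higher and 1 lower, against 53.7% of all rows (27.0% higher and 26.7% lower). Median log2 fold changes of the 8 were 1.78, -0.37 and 2.15, and those of all tested rows -0.01, 0.03 and -0.01. As the genes were chosen with results known, nothing is read from these counts. The comparisons share samples, and the direct comparison of the kinds of ectosomes doubles as the test of whether their effects against the shared control differ.

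Between the kinds of ectosomes, 3 of the 7 calls depended on the settings. For TGFB1 the adjusted p of edgeR's quasi-likelihood test was 0.0490, and the call ended in 10 of 15 alternatives (0.137 at most). The call of SMAD7 (adjusted p = 0.0287) ended without any 1 of the scramble-ectosome libraries or of PKM2-knockdown replicates 2 and 3 (0.0936 at most). The call of ACVR1B (adjusted p = 0.0183) ended without scramble replicate 3, PKM2-knockdown replicate 1 or replicate 2, and with scaling by library totals alone (0.304 at most). TGFBR1 did not pass (adjusted p = 0.925). Groups overlapped for TGFBR1 in this comparison and for no other gene of the 8 in any comparison. Of all rows 71.3% had no overlap between scramble ectosomes and control (36.7% higher and 34.6% lower), 74.5% between the kinds of ectosomes (37.4% and 37.1%) and 60.5% between PKM2-knockdown ectosomes and control (30.7% and 29.8%).

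Values that moved with the groups in the whole data set bear on every result here. Libraries held 17744587 to 23864381 counts. Control replicate 3 was unlike the other controls, 230 rows being 2-fold or more above their mean and 1020 rows 2-fold or more below it. It was the lowest control for 7 of the 8 genes, the exception being INHBA, where control replicate 1 had no read. Scaling by library totals alone shifted the median of all rows to -0.21 for scramble ectosomes against control and to 0.20 between the kinds of ectosomes, and moved the share of calls that were higher from 51.0% to 40.2% and from 50.9% to 61.9%. PKM itself stood at 428 to 789 CPM in control, 3376 to 3573 CPM with scramble ectosomes and 2181 to 2454 CPM with PKM2-knockdown ectosomes. This does not check the labels, since the shRNA was read as that of the Huh7 cells.

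Monocytic markers moved in both directions, and values below are in the order control, scramble-ectosome and PKM2-knockdown-ectosome cells. Of 12 such markers, 3 rose and 7 fell with scramble ectosomes against control, beside 34.6% and 33.2% of all rows. Between the kinds of ectosomes 7 were higher and 0 lower with the knockdown, beside 31.4% and 30.3% of all rows. Those that rose were PTPRC (CD45; 265, 570 and 598 CPM), SPI1 (PU.1; 252, 494 and 561 CPM) and CSF1R (35.5, 85.0 and 351 CPM). The largest falls were those of LYZ (lysozyme; 203, 17.6 and 39.9 CPM), FLT3 (38.3, 3.89 and 5.83 CPM) and MPO (4.18, 0.446 and 0.548 CPM). FCGR1A (71.1, 14.6 and 41.2 CPM), CEBPA (191, 49.9 and 79.96 CPM), ITGAM (23.5, 13.5 and 45.97 CPM) and CD33 (58.6, 43.0 and 61.7 CPM) fell as well. The call of ITGAM (adjusted p = 0.0433) ended without any 1 of the libraries other than control replicate 3, among other settings (0.160 at most). CD14 (4.85, 6.21 and 92.2 CPM) and CD68, which was near 0 in all groups (0.314, 0.466 and 0.630 CPM), did not pass in that comparison. Their part in the results was not tested, and in bulk RNA fewer cells of a kind and less RNA per cell cannot be told apart.

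Hepatocyte transcripts, which vesicles of hepatoma cells could carry, were low and did not share 1 order of groups. Of 18 listed, 10 had a row, and their summed level was 17.6 to 21.2 CPM in control, 9.93 to 10.7 CPM with scramble ectosomes and 46.2 to 52.7 CPM with PKM2-knockdown ectosomes. Most of the sum came from GPC3 (13.4, 2.69 and 4.75 CPM in the same order) and SERPINA1 (2.01, 3.53 and 37.4 CPM), so it does not describe the other genes. Summed over the 3 libraries of a group, AMBP had 4, 24 and 2 reads, RBP4 2, 14 and 3, TTR 0, 7 and 0, and VTN 18, 30 and 5, each highest with scramble ectosomes, as INHBA and GDF15 were. Scaled to library size, AMBP was 5.82 times (95% counting interval 1.998 to 23.1) and RBP4 6.79 times (1.56 to 61.5) its control level there. VTN was 1.62 times (0.872 to 3.08) its control level, so its excess lay within counting error, and the order of TTR rests on 7 reads. ALB, the gene of serum albumin, had 7, 7 and 27 reads, and APOA2 stood at 1.76, 2.28 and 4.82 CPM, both highest with PKM2-knockdown ectosomes. APOA1 (0.676, 0.252 and 0.0803 CPM) was highest in control. TF (0.825, 0.351 and 0.807 CPM) was alike in control and with PKM2-knockdown ectosomes, at 51 and 49 reads. The part of RNA carried by vesicles in the results was not tested.

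Beyond the 8 genes, 97 genes of the pathway were listed by role from textbook knowledge, of which 91 had a row and 82 had enough counts. Of these 82, edgeR's quasi-likelihood test called 47 higher and 18 lower with scramble ectosomes than in control (median log2 fold change 0.68). Without control replicate 3 these counts were 50 and 21. Between the kinds of ectosomes 24 were higher and 34 lower with the knockdown (median -0.19), or 28 and 38 without control replicate 3. Scaling by library totals alone gave 24 and 27 (median -0.01), which are 29.3% and 32.9% of the 82. With that scaling 38.2% of all rows were higher and 23.5% lower (median 0.20). The median of these genes was thus below that of all rows with either scaling. Against control, PKM2-knockdown ectosomes had 40 higher and 15 lower (median 0.35), or 42 and 20 without control replicate 3. In that comparison 27.0% of all rows were higher and 26.7% lower. Shares of 79.3%, 70.7% and 67.1% called in the 3 comparisons stand beside 67.8%, 61.6% and 53.7% of all rows. Without control replicate 3 these shares were 86.6%, 80.5% and 75.6%, beside 71.6%, 71.5% and 57.7% of all rows. The counts of each list below stand beside 34.6% of all rows higher and 33.2% lower with scramble ectosomes. Between the kinds of ectosomes these shares of all rows were 31.4% and 30.3%. Every adjusted p below is from the same test.

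**Figure D3:**
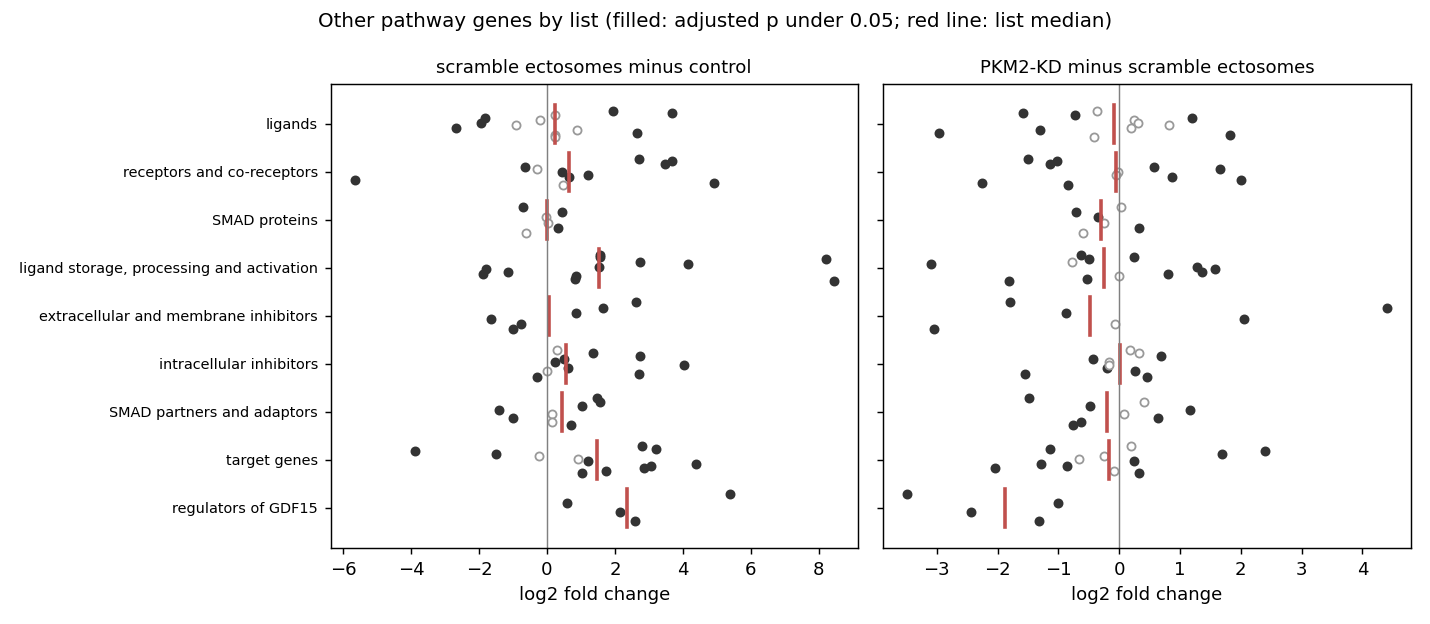
Log2 fold change of the tested pathway genes (1 point per gene, with 1 gene left out) by list, for scramble ectosomes against control on the left and PKM2-knockdown against scramble ectosomes on the right, with filled points for adjusted p under 0.05 and a red line at the list median. Storage and activation genes have 9 filled points above 0 and 3 below on the left and 5 and 5 on the right, and the 4 regulators of GDF15 drawn have 4 above 0 on the left and 4 below 0 on the right.

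Other ligands moved in both directions. Of 12 tested, 3 rose and 3 fell with scramble ectosomes (median log2 fold change 0.24). Without control replicate 3 these counts were 3 and 5 (median 0.02), beside 36.9% and 34.7% of all rows. Between the kinds of ectosomes 2 were higher and 4 lower with the knockdown (median -0.09, or 0.08 with scaling by library totals). Of these calls, those of INHBC, BMP8A and TGFB2 ended without scramble replicate 1, among other settings. TGFB2 met the count filter only through the knockdown group. BMP6, a regulator of iron balance, stood at 0.315 CPM in control, 4.13 CPM with scramble ectosomes and 1.38 CPM in the PKM2-knockdown group, a 12.8-fold rise (adjusted p = 4.11e-06) and a 2.99-fold lower level with the knockdown (adjusted p = 0.000566). Its control level rested on 19 reads, and BMP6 met the count filter only through the groups given ectosomes. BMP2 rose 3.81-fold, from 1.39 to 5.29 CPM. BMP8B went the other way, from 406 CPM in control to 116 CPM with scramble ectosomes (3.51-fold lower, adjusted p = 3.01e-08) and 264 CPM in the PKM2-knockdown group (2.29-fold above scramble, adjusted p = 1.08e-06).

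INHBE, the activin beta E subunit known mainly from liver, was high with scramble ectosomes alone. Its libraries held 56.0, 50.4 and 7.56 CPM in control, 238, 239 and 235 CPM with scramble ectosomes, and 30.9, 29.7 and 31.1 CPM in the PKM2-knockdown group. The scramble-ectosome libraries stood above all others, and control replicate 3 stood far below the other controls. INHBE rose 6.22-fold with scramble ectosomes (adjusted p = 0.000719) and was 7.76-fold lower with the knockdown (adjusted p = 0.00046). Against control it did not pass with PKM2-knockdown ectosomes (adjusted p = 0.607), but was called lower without control replicate 3 (adjusted p = 4.98e-09). On few reads, AMBP, RBP4, TTR and VTN, of the hepatocyte list, were also highest in the scramble-ectosome group. For VTN the excess over control lay within counting error. The other 6 with a row were not highest there, and whether INHBE transcripts came with the vesicles was not tested.

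Receptors and co-receptors rose more often than they fell. With scramble ectosomes 7 of 11 tested rose and 2 fell (median 0.65), or 5 and 2 with scaling by library totals (median 0.44). RGMB, counted among the 7, held 12 control reads and met the count filter only through the groups given ectosomes. Between the kinds of ectosomes 4 were higher and 5 lower with the knockdown (median -0.06, or 0.12 with scaling by library totals). ACVR1C (ALK7), another type I receptor for activins, rose from 2.47 to 32.0 CPM, 12.9-fold (adjusted p = 2.33e-08), and was 2.04-fold lower with the knockdown, at 15.7 CPM (adjusted p = 0.00011). ACVR1 (ALK2), a type I receptor for BMPs, rose 6.46-fold from 5.27 to 34.2 CPM and was 2.83-fold lower with the knockdown, at 12.1 CPM. RGMA, a BMP co-receptor, fell 50.5-fold, from 21.4 to 0.413 CPM (adjusted p = 1.20e-08), and stood at 1.70 CPM with PKM2-knockdown ectosomes, 4.01-fold above scramble. The receptor of GDF15, GFRAL, is not analysed here.

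Of the other 6 SMAD genes, 2 rose and 1 fell with scramble ectosomes (median 0.01, or -0.19 with scaling by library totals), and 1 was higher and 2 lower with the knockdown than with scramble ectosomes (median -0.31). SMAD2, the partner of SMAD3 below the same receptors, rose 1.37-fold from 76.0 to 104 CPM (adjusted p = 0.000154), while SMAD3 was lower. With PKM2-knockdown ectosomes SMAD2 stood at 64.0 CPM, 1.63-fold below scramble (adjusted p = 9.28e-06). SMAD4, the shared partner, stood at 58.0, 57.3 and 44.9 CPM, 1.28-fold lower with the knockdown than with scramble ectosomes (adjusted p = 0.00375, or 0.0676 with scaling by library totals). SMAD6, an inhibitory SMAD, stood at 13.6, 16.9 and 21.2 CPM, and its rise with scramble ectosomes (adjusted p = 0.0235) ended without control replicate 1 or 2 or scramble replicate 2 or 3, among other settings (0.340 at most). SMAD1, a BMP SMAD, stood at 3.72, 2.27 and 2.31 CPM, and its fall with scramble ectosomes (adjusted p = 0.0432) ended without any 1 of control replicate 3, the scramble-ectosome and the PKM2-knockdown-ectosome libraries, among other settings (0.193 at most).

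Genes that store, process or activate TGF-beta held the widest changes outside the ligands. All 12 tested passed with scramble ectosomes, 9 higher and 3 lower (median 1.54), and 5 were higher and 5 lower with the knockdown than with scramble ectosomes (median -0.25). ITGB8 and LRRC32, both counted among the 9, held 11 and 14 control reads. They met the count filter only through the groups given ectosomes, so nothing is read from their part in these counts. THBS1, a matrix protein that can activate latent TGF-beta, held 0.959, 1.51 and 0.497 CPM in the control libraries, 360, 349 and 357 CPM with scramble ectosomes, and 109, 103 and 89.7 CPM in the PKM2-knockdown group. With scramble ectosomes it rose 346-fold, and it was 3.53-fold lower with the knockdown, with no overlap between groups. ITGB8, the integrin chain that pairs with ITGAV to activate latent TGF-beta, held 11 reads over the 3 controls and stood at 55.3 and 39.2 CPM in the ectosome groups. Its rise with scramble ectosomes was 294-fold, or 631-fold without control replicate 2, and the ratio of reads was 302 with a 95% counting interval of 169 to 606.

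NRROS, which anchors latent TGF-beta on myeloid cells, fell 3.70-fold with scramble ectosomes, from 115 to 31.1 CPM, and stood at 54.0 CPM with PKM2-knockdown ectosomes. LTBP1 and LTBP4, latent TGF-beta binding proteins of the matrix, moved in opposite directions. LTBP1 held 1.44, 1.16 and 0.497 CPM in control, 19.1, 17.2 and 18.9 CPM with scramble ectosomes, and 2.11, 2.34 and 1.99 CPM in the PKM2-knockdown group, 8.54-fold below scramble. LTBP4 held 63.4, 53.6 and 52.3 CPM in control, 23.7, 26.0 and 27.5 CPM with scramble ectosomes, and 62.0, 69.0 and 66.6 CPM in the PKM2-knockdown group, 2.56-fold above scramble. Libraries of the scramble-ectosome group were thus the highest for LTBP1 and the lowest for LTBP4.

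Inhibitors outside the cell and at the membrane were split. Of 6 tested, 3 rose and 3 fell with scramble ectosomes (median 0.05, or -0.15 with scaling by library totals), and 2 were higher and 3 lower with the knockdown (median -0.47). FKBP1A, which binds type I receptors and prevents leaky signalling, rose 1.82-fold from 106 to 194 CPM and was back at 105 CPM with PKM2-knockdown ectosomes, 1.84-fold lower. BAMBI, a receptor decoy, rose 6.16-fold from 0.945 to 5.92 CPM and stood at 1.69 CPM with the knockdown. NOG, a BMP antagonist, fell 1.99-fold from 7.14 to 3.59 CPM and was 8.28-fold lower again with PKM2-knockdown ectosomes, at 0.428 CPM. DCN (decorin), which binds TGF-beta, stood at 0.150, 0.529 and 11.3 CPM, 21.1-fold higher with PKM2-knockdown than with scramble ectosomes on 33 reads in the latter. Control held 10 reads, and DCN met the count filter only through the knockdown group. Its rise with scramble ectosomes (adjusted p = 0.0300) ended with library totals and without control replicate 1 or 3 or scramble replicate 3 (0.114 at most).

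Inhibitors inside the cell mostly rose. With scramble ectosomes 7 of 10 rose and 1 fell (median 0.57), and between the kinds of ectosomes 3 were higher and 3 lower (median 0.01). SKIL, a SMAD co-repressor and known TGF-beta target, held 15.5, 14.2 and 12.5 CPM in control, 236, 227 and 227 CPM with scramble ectosomes, and 221, 203 and 188 CPM in the PKM2-knockdown group. It rose 16.3-fold with scramble ectosomes (adjusted p = 6.32e-10). The difference between the kinds of ectosomes did not pass (adjusted p = 0.114), but did without control replicate 3 (adjusted p = 0.0136). PMEPA1, which sequesters SMAD2 and SMAD3, rose 6.69-fold from 1.52 to 10.2 CPM and stood at 16.6 CPM with the knockdown. TGIF1, another co-repressor, rose 6.50-fold from 15.8 to 103 CPM and was 2.92-fold lower with the knockdown, at 35.2 CPM.

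**Figure D4:**
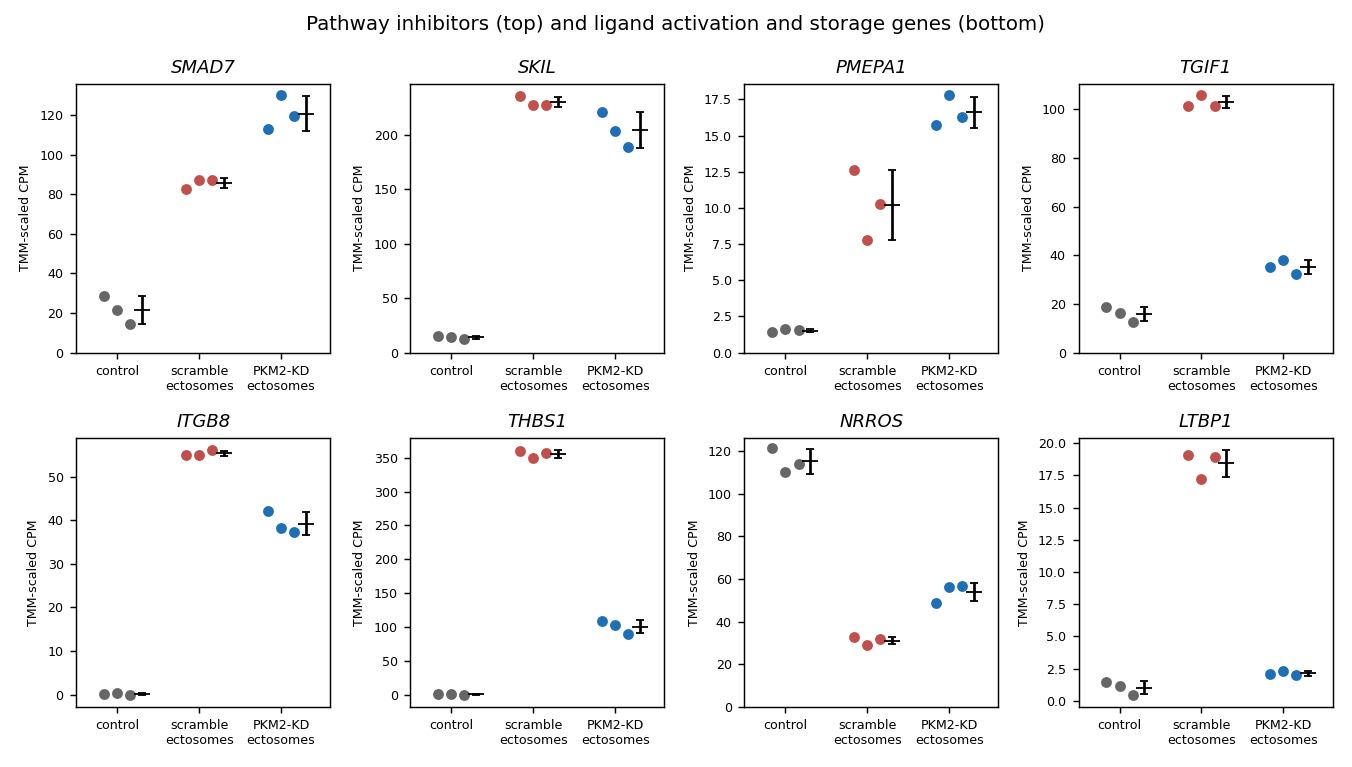
TMM-scaled CPM (linear axis, its own scale for each gene) by group for 4 genes that restrain the pathway (SMAD7, SKIL, PMEPA1, TGIF1) and 4 that activate or store its ligand (ITGB8, THBS1, NRROS, LTBP1), with 1 point per library and a black mark for the mean with its SD (n = 3). SKIL stays at 188 CPM or more in both ectosome groups, LTBP1 is above 2.34 CPM with scramble ectosomes alone, and NRROS is highest in control.

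Partners and adaptors of the SMADs included 4 of 8 that rose and 2 that fell with scramble ectosomes (median 0.43). Between the kinds of ectosomes 2 were higher and 4 lower with the knockdown (median -0.21). The acetyltransferase co-activators CREBBP and EP300 rose 2.76-fold (97.2 to 268 CPM) and 2.06-fold (148 to 305 CPM), and CREBBP was back at 95.7 CPM with the knockdown, 2.80-fold lower. ZFYVE9 (SARA), which presents SMADs to the receptor, stood at 13.8, 22.6 and 13.3 CPM and was 1.70-fold lower with the knockdown than with scramble ectosomes. TAB1, an activator of the kinase MAP3K7, fell 2.02-fold from 47.8 to 23.7 CPM and stood at 36.9 CPM with the knockdown, 1.56-fold above scramble.

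Known target genes of the pathway rose more often than they fell with scramble ectosomes, 8 against 2 of 12 tested (median 1.47). ID3, counted among the 8, held 3 control reads and met the count filter only through the groups given ectosomes. Between the kinds of ectosomes 4 were higher and 4 lower (median -0.17, or 0.00 with scaling by library totals). KLF10, a TGF-beta-inducible transcription factor, stood at 23.0 CPM in control, 165 CPM with scramble ectosomes and 39.8 CPM in the PKM2-knockdown group, 4.14-fold below scramble. JUNB stood at 57.8, 478 and 263 CPM, 1.82-fold lower with the knockdown (adjusted p = 0.00525). BHLHE40 rose 6.98-fold, from 36.9 to 258 CPM, and stood at 295 CPM with the knockdown. ID2 rose 2.30-fold, from 27.0 to 62.1 CPM, and stood at 73.3 CPM. COL4A1, a basement membrane collagen, fell 14.7-fold from 20.6 to 1.40 CPM and was 5.26-fold higher with the knockdown, at 7.34 CPM. Many of these genes also answer to other signals, and which signal moved them was not measured.

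Transcription factors known to regulate GDF15 were listed separately, as they belong to the stress response. All 4 described here, ATF3, DDIT3, ATF4 and EGR1, rose with scramble ectosomes (median 2.36), and all 4 were lower with PKM2-knockdown than with scramble ectosomes (median -1.88). The list holds a further gene that is not reported here, so these counts and medians cover the 4 alone and not the whole list. ATF3 held 4.0, 4.05 and 1.05 CPM in control, 129, 128 and 132 CPM with scramble ectosomes, and 11.6, 12.2 and 10.9 CPM in the PKM2-knockdown group. The rise with scramble ectosomes was 42.0-fold (adjusted p = 7.32e-08), and ATF3 was 11.2-fold lower with the knockdown (adjusted p = 1.26e-06), with the groups in the same order as for GDF15 and none overlapping.

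DDIT3 (CHOP), a factor of the endoplasmic reticulum stress response, held 37.0, 37.8 and 16.5 CPM in control, 123, 139 and 142 CPM with scramble ectosomes, and 26.9, 26.9 and 20.9 CPM in the PKM2-knockdown group. DDIT3 rose 4.42-fold with scramble ectosomes (adjusted p = 2.19e-05) and was 5.41-fold lower with the knockdown (adjusted p = 1.42e-05). ATF4, which acts upstream of both, stood at 758, 1131 and 564 CPM, 1.49-fold higher with scramble ectosomes than in control (adjusted p = 0.000711) and 2.01-fold lower with the knockdown (adjusted p = 1.90e-05). The difference of DDIT3 between PKM2-knockdown ectosomes and control did not pass with all libraries (adjusted p = 0.352), but DDIT3 was called lower without control replicate 3 (adjusted p = 3.36e-05), while GDF15 was above control in the same libraries.

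EGR1, an immediate-early factor, stood at 22.9, 138 and 55.2 CPM, a 5.99-fold rise with scramble ectosomes (adjusted p = 0.000213). Its 2.49-fold lower level with the knockdown (adjusted p = 0.0124) did not pass without PKM2-knockdown replicate 3 (adjusted p = 0.0533).

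**Figure D5:**
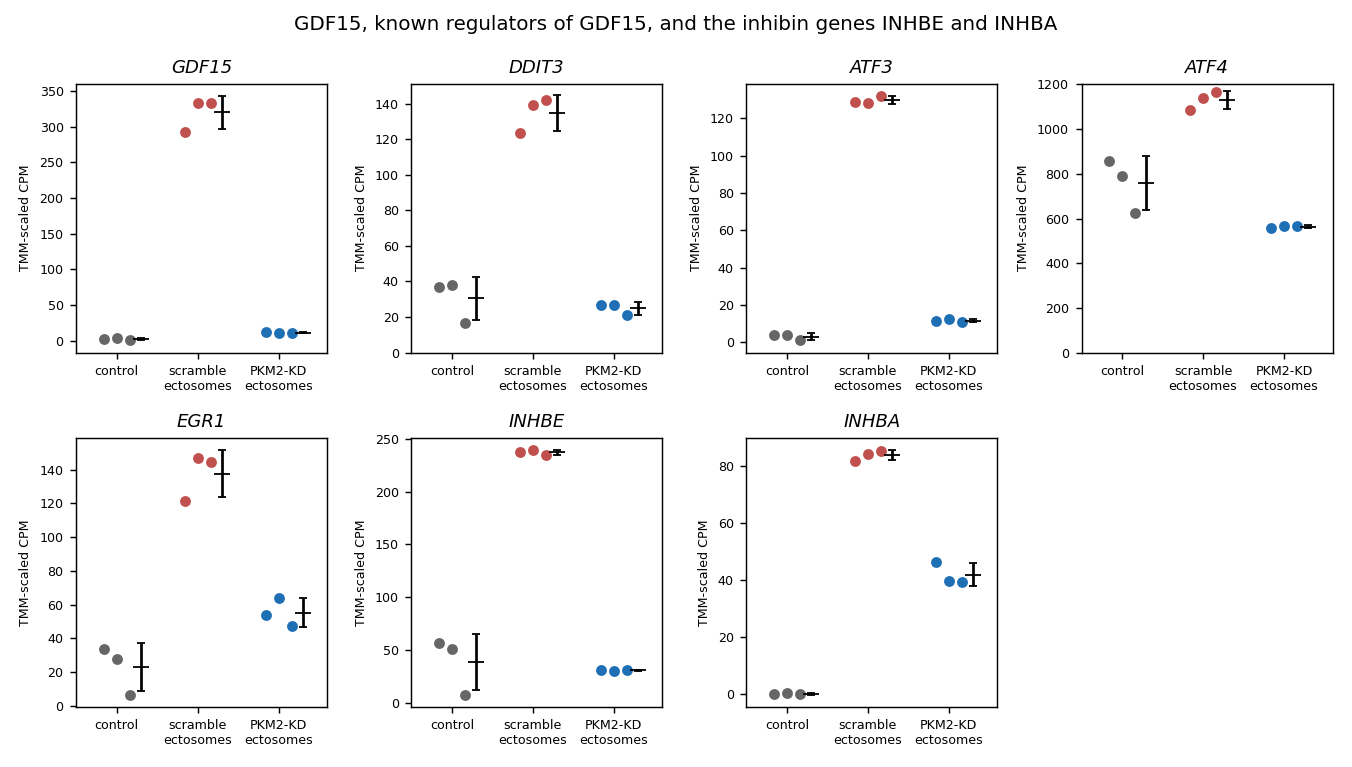
TMM-scaled CPM (linear axis, its own scale for each gene) by group for GDF15, 4 transcription factors known to regulate it, INHBE and INHBA, with 1 point per library and a black mark for the mean with its SD (n = 3). ATF3, DDIT3 and INHBE are highest in the 3 scramble-ectosome libraries, as GDF15 is.

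Genes of the most similar pattern were found for INHBA and GDF15 by the root-mean-square difference of centred log2 CPM over the 9 libraries, among 11010 genes with a mean of at least 5 CPM. For INHBA, whose own root-mean-square deviation was 3.84, they were LUCAT1 (0.49), HMGN2P46 (0.60), ITGB8 (0.66), THBS1 (0.67) and MUC5AC (0.84). LUCAT1, a long non-coding RNA, stood at 0.755, 196 and 109 CPM in control, scramble-ectosome and PKM2-knockdown-ectosome cells. Both ITGB8 and THBS1 are also on the list of TGF-beta activation genes, and nothing is read from this. At 0.168 and 0.987 CPM in control, they reached the mean of 5 CPM only through the groups given ectosomes. For GDF15, with a deviation of 3.30, they were F2RL3 (0.44), GPAT3 (0.52), AREG (0.70), OLAH (0.70) and TREML3P (0.82). F2RL3, the thrombin receptor PAR4, stood at 2.41, 177 and 8.09 CPM, and GPAT3, an enzyme of triglyceride synthesis, at 1.02, 98.4 and 4.02 CPM. None of the 5 genes nearest to GDF15 was among the 5 nearest to INHBA. The 9 points behind each likeness are the same libraries in 3 groups, so these are descriptions of shared group patterns.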

How the data were processed

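RNA of 9 THP-1 libraries was sequenced on an Illumina HiSeq instrument after Trizol extraction and NEBNext Ultra library preparation, per the labels' protocols. The values used are raw, unnormalized read counts, deposited by the authors as 1 table by gene symbol. The submitters' processing notes name HISAT2 2.0.5, featureCounts 1.5.0-p3 and GRCh38 (hg38), and neither annotation, strand setting nor row filter is given in the sources used here. Row totals start at 4 counts. The first row of a symbol was used, as 355 rows repeat an earlier one.

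Counts were tested with edgeR 4.0.16 (R 4.3.3). Rows were filtered by filterByExpr by group, which left 18437 rows with at least 99.8% of each library's counts. Libraries were scaled by TMM, and all 9 entered 1 quasi-likelihood fit with group as the term (6 residual degrees of freedom, common biological coefficient of variation 13.3%). Tests were two-sided with Benjamini-Hochberg adjustment over all rows and a threshold of 0.05. As SE the size of the log2 fold change over the square root of F is given, which may be too small at few reads. CPM values were computed here. Intervals of read ratios are exact at 95% and cover counting error only, since without molecular identifiers reads may be copies of 1 molecule. Control replicate 3 was compared with the other controls at a pseudocount of 0.5 CPM. The steps were run on simulated counts with few changed rows, the same spread for every row and no outlying library. That checks the code, but not the scaling or the error rates in these data. Exon lengths and coordinates are from GENCODE 29, and promoters from RefSeq.

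The 8 genes and the lists were chosen with earlier results of these data known. Named pathway genes are up to 3 per list with the smallest p among those past the threshold in each of the first 2 comparisons, shown in part. Of the listed genes, 1 is counted in the totals and not reported here. ATF4, SKIL and ITGB8 values outside the comparison that named them were chosen after their values were seen. For likeness, log2 CPM had a prior count of 2. Of listed genes, GDF3, BMPR1B, AMHR2, GFRAL, ITGB6 and CDKN2B are not analysed here, and BMP4, BMP7, MSTN, NODAL, TDGF1, HJV, FST, CHRD and GREM1 had too few counts to test. Alternatives were library totals, size factors by relative log expression (RLE), the DESeq2 1.42.0 Wald test, no filter, only the 2 groups compared, a replicate block, and each library left out in turn.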

Additional observations from a re-analysis of the deposited data

How the results depend on the processing

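Under the alternatives, 133 of 135 recomputed counts stayed within 1.5 times the reported count, and 337 of 360 recomputed fold changes of the 8 genes kept their direction and side of the threshold. The counts are totals that ignore direction. With library totals alone, calls for scramble ectosomes against control went from 6377 higher and 6115 lower to 5129 and 7630, within that limit. The number of the 8 genes called between the kinds of ectosomes ranged from 4 to 7 with each library left out in turn, the 4 being without scramble replicate 3 and without PKM2-knockdown replicate 2. The log2 difference of TGFBR1 between the kinds of ectosomes turned to 0.16 with library totals alone, 0.0066 with no filter, 0.0010 without scramble replicate 2 and 0.056 without PKM2-knockdown replicate 3, in a range of -0.096 to 0.056 with libraries left out. The remaining 19 changes were calls of TGFB1, SMAD7 and ACVR1B in the same comparison that ended. Deviations of same-numbered libraries from their group means had correlations of -0.09 to 0.07, and those of other pairs -0.07 to 0.07. At 3 libraries per group this cannot exclude a shared culture or batch, and the labels name none. With a replicate block 12179, 11035 and 9401 rows were called in the 3 comparisons, 8, 6 and 8 of the 8 genes, and 64, 57 and 54 of the listed pathway genes, the gene lost being TGFB1 (adjusted p = 0.0668). Depth limits INHBA and ITGB8 in control, where 14 and 11 reads set the size of their fold changes, and the cause of the other changes was not tested.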
